A study of Sus scrofa with 17 samples.

Results

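FKBP5 and TSC22D3 are 2 target genes of the glucocorticoid receptor, and they are 2 of the 26560 porcine genes counted in kidneys perfused with or without extracellular vesicles (EVs). They were chosen by name, as the rows ENSSSCG00000001549 (FKBP5) and ENSSSCG00000030241 (TSC22D3) of the count matrix. Both stand in the list of genes that the deposited comparison of G3 with G1 puts under an unadjusted p of 0.05. That comparison therefore chose them. Values of G3 against G1 fitted here from the counts are given for these 2 genes as a description, with no test. FKBP5 lies on chromosome 7 (31441764 to 31550704) and TSC22D3 on chromosome X (88171325 to 88233583) in RefSeq's annotation of Sscrofa11.1, matched by symbol. The question was whether these genes moved together or apart with the number of EV injections.

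RNA was sequenced from biopsies of 17 kidneys, taken when normothermic machine perfusion (NMP) ended. Every kidney came from a wild-type female Dutch Landrace pig of 6 months to 1 year obtained at a slaughterhouse, with 1 kidney per animal, and every kidney had 32 min of warm ischemia, 24 h of hypothermic machine perfusion (HMP) and 5 h of NMP with a medium holding the pig's own blood cells. G1 (n = 5) received the vehicle PBS in both perfusions, G2 (n = 6) received pUPC-EVs, vesicles from porcine urine progenitor cells, in HMP and PBS in NMP, and G3 (n = 6) received pUPC-EVs in both. All injected EVs came from 1 pooled preparation, the model is a kidney perfused outside the body without recipient, and no glucocorticoid is named among the components of the NMP medium in the methods. Hormone levels in the perfusates were not analysed here.

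Glucocorticoids such as cortisol enter the cell and bind the glucocorticoid receptor NR3C1, which is held ready by HSP90 and its co-chaperones and then moves to the nucleus to switch genes on or off. FKBP5 encodes an HSP90 co-chaperone that lowers the receptor's affinity for its ligand, and because the receptor induces it, it forms a short negative feedback loop. TSC22D3 encodes GILZ, the glucocorticoid-induced leucine zipper, which restrains inflammatory transcription factors, and in the kidney it is also known as an aldosterone-induced gene that acts on sodium transport. In many tissues both genes are read as signs of an active receptor.

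Libraries held 19270046 to 24736473 counts (median 21504848), and the counts of kidneys within a group differed by more than sampling noise in all 40 pairs (chi-square per degree of freedom from 16.5 to 116.0). Sample codes fell into 3 runs of consecutive numbers whose meaning the labels do not state, called code series A, B and C here: A held 2 G1, 2 G2 and 1 G3 kidneys, B held 2 G1 and 1 G3, and C held 1 G1, 4 G2 and 4 G3. Values are CPM, counts scaled to a fixed library total, with TMM factors that correct for library composition. CPM are not divided by gene length, so they compare kidneys for 1 gene and not 1 gene with another.

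FKBP5 was higher in both groups that received EVs than in G1, with a mean of 42.9 ± 6.02 CPM (SD, n = 5) in G1, 63.6 ± 10.3 (n = 6) in G2 and 64.4 ± 24.8 (n = 6) in G3. In G1, kidneys 1 to 5 had 38.3, 43.0, 53.3, 39.9 and 40.2 CPM, from 789 to 1119 counts. In G2, kidneys 1 to 6 had 60.2, 61.6, 68.3, 50.5, 59.8 and 81.2 CPM, from 1118 to 1539 counts. In 5 of 6 G2 kidneys the level lay above every G1 kidney, and kidney 4 was the exception. In G3, kidneys 1 to 6 had 44.1, 100.3, 43.4, 86.0, 69.0 and 43.5 CPM, from 853 to 2060 counts. G3 was split: kidneys 2, 4 and 5 lay above every G1 kidney, while kidneys 1, 3 and 6 lay inside the range of G1 and below every G2 kidney. The mean of G3 equalled that of G2 within 1.25%, but the SD on the log2 scale was 0.545 in G3, 0.228 in G2 and 0.189 in G1, and the median of G3 (56.6 CPM) was below that of G2 (60.9 CPM). The difference in spread was not tested.

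TSC22D3 was lower in the groups with more injections, with 45.9 ± 7.08 CPM (SD, n = 5) in G1, 37.7 ± 3.08 (n = 6) in G2 and 31.6 ± 4.52 (n = 6) in G3. In G1, kidneys 1 to 5 had 40.9, 44.3, 56.3, 49.2 and 38.6 CPM, from 888 to 1183 counts. In G2, kidneys 1 to 6 had 40.3, 32.5, 36.6, 40.8, 36.9 and 38.9 CPM, from 719 to 904 counts. Only kidneys 2, 3 and 5 of G2 lay below every G1 kidney, so these 2 groups overlapped. In G3, kidneys 1 to 6 had 33.3, 32.1, 29.9, 24.8, 38.6 and 31.0 CPM, from 543 to 840 counts. In G3, 5 of 6 kidneys lay below every G1 kidney, kidney 5 reached the lowest G1 value, and 4 of 6 lay below every G2 kidney. In whole biopsies, fewer cells of a type and less RNA per cell cannot be told apart.

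**Figure D1:**
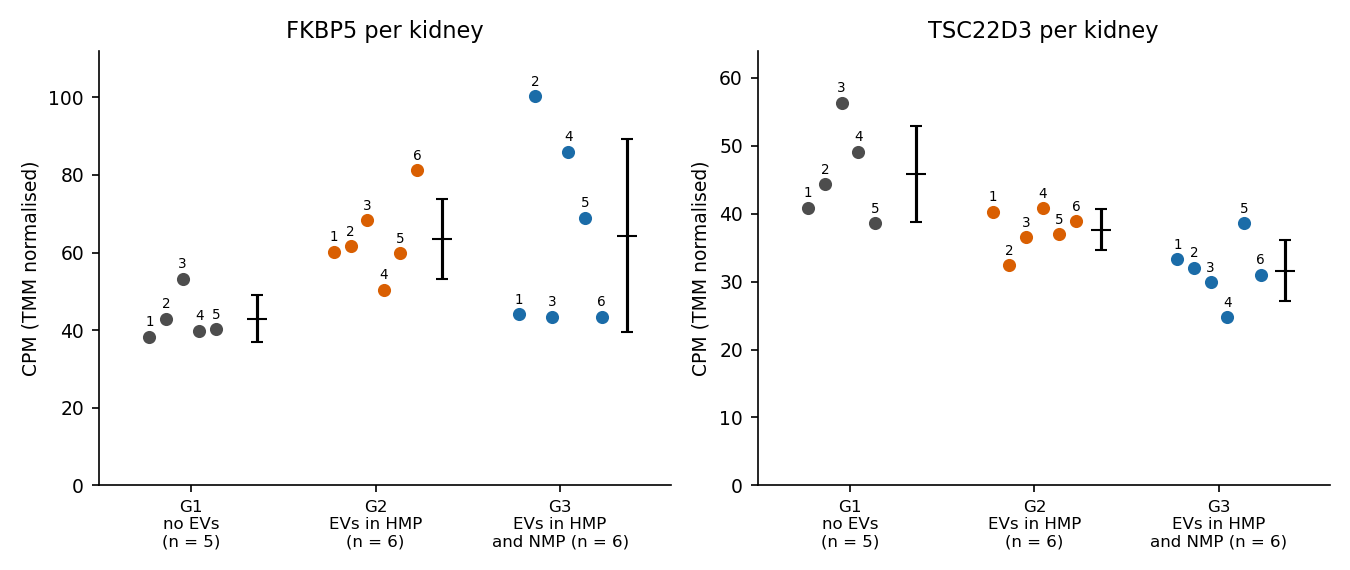
CPM (TMM normalised, linear axis from 0) of FKBP5 (left) and TSC22D3 (right) in each kidney of G1, G2 and G3. Points are kidneys with their number, and the black bars give the mean ± SD of the group. FKBP5 is spread from 43.4 to 100.3 CPM in G3, where kidneys 2, 4 and 5 stand apart from kidneys 1, 3 and 6, while TSC22D3 steps down from G1 to G3 with overlap between neighbouring groups.

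In the comparison of G2 with G1, which addresses EVs given in HMP, mean FKBP5 was 48.1% higher and mean TSC22D3 17.9% lower. The log2 fold change of FKBP5 was 0.57 (SE 0.139, higher than all G1 in 5 of 6 kidneys), with an unadjusted p of 0.000787 and an adjusted p of 0.840 over all 25699 genes in edgeR's quasi-likelihood test with Benjamini-Hochberg adjustment. That of TSC22D3 was −0.28 (SE 0.125), with an unadjusted p of 0.0364 and an adjusted p of 0.840 in the same edgeR test. Neither gene therefore passed the adjusted threshold of 0.05, and 0 of 25699 genes did (0%), against 1 gene by DESeq2. At an unadjusted p under 0.05 edgeR listed 901 genes (3.51%), 1.42% higher and 2.09% lower. G2 and G1 did not overlap for 0.0817% of genes with G2 higher and 0.125% with G2 lower, and both FKBP5 and TSC22D3 overlapped. The G1 kidneys here are those of the comparison that chose the genes, so this is not independent of it.

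G3 against G1 was the comparison that chose both genes. Mean FKBP5 was 49.9% higher and mean TSC22D3 31.1% lower, with log2 fold changes of 0.58 (SE 0.213) and −0.54 (SE 0.129). In edgeR 2 of 25719 genes passed an adjusted p of 0.05 (0.00778%), neither of them FKBP5 or TSC22D3, and 31 did in DESeq2, again without these 2. An unadjusted p under 0.05 was reached by 4.73% of genes, 1.94% higher and 2.79% lower. G3 and G1 did not overlap for 0.124% of genes with G3 higher and 0.187% with G3 lower, whereas both genes here overlapped, and nothing is read from the place of these genes among them. Without G3 kidney 2 the log2 fold change of FKBP5 was 0.41, and without G3 kidney 4 it was 0.47.

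G3 against G2 addresses the second injection, given in NMP. FKBP5 differed by 0.02 on the log2 scale (SE 0.207), with an adjusted p of 1.00 in edgeR, and this difference changed sign without G3 kidney 2 (−0.15), without G3 kidney 4 (−0.08) and without G2 kidney 4 (−0.04). Of the 6 G3 kidneys, 2 lay above and 3 below every G2 kidney. TSC22D3 had a log2 fold change of −0.25 (SE 0.119), with an unadjusted p of 0.0526 and an adjusted p of 0.948 in edgeR. These G3 kidneys are those of the comparison that chose the genes, so neither value is independent of that choice. No gene passed the adjusted threshold in edgeR (0 of 25701, 0%), 805 genes (3.13%) had an unadjusted p under 0.05, with 1.61% higher and 1.52% lower, and DESeq2 called 3. G3 and G2 did not overlap for 0.0584% of genes with G3 higher and 0.0389% with G3 lower, and overlapped for both FKBP5 and TSC22D3.

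Within code series the direction of FKBP5 against G1 held while its size varied: G3 minus G1 was 0.12 in A, 1.12 in B and 0.52 in C on the log2 scale, and G2 minus G1 was 0.58 in A and 0.67 in C. For TSC22D3, G3 minus G1 was −0.35, −0.71 and −0.33 in A, B and C. Its G2 minus G1 difference was −0.23 in A but −0.01 in C, where the only G1 kidney is kidney 5, the one with the lowest TSC22D3 of its group. For G3 minus G2, FKBP5 was −0.46 in A and −0.14 in C, against 0.02 over all kidneys, and TSC22D3 was −0.12 and −0.32. These series hold 1 to 4 kidneys per group, and no test was made within them.

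The count ratio of FKBP5 to TSC22D3 in the same library needs no scaling between libraries, and a change in it means that the genes changed unequally. The ratio was 0.937, 0.970, 0.946, 0.812 and 1.04 in G1 kidneys 1 to 5. It was 1.49, 1.90, 1.87, 1.24, 1.62 and 2.08 in G2 kidneys 1 to 6, and 1.32, 3.13, 1.45, 3.47, 1.79 and 1.40 in G3 kidneys 1 to 6. All 6 G2 and all 6 G3 kidneys lay above all 5 G1 kidneys, although each gene alone overlapped between the groups. The group means were 0.941 ± 0.0833 (SD, n = 5), 1.70 ± 0.310 (n = 6) and 2.09 ± 0.954 (n = 6), and the highest ratios of G3 were those of kidneys 2 and 4.

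On the log2 scale the mean ratio was 0.84 higher in G2 than in G1 and 1.04 higher in G3 than in G1. Over every way of leaving out 1 kidney these differences ranged from 0.77 to 0.92 and from 0.87 to 1.15. G3 and G2 differed by 0.21, with 2 of 6 G3 kidneys above every G2 kidney, and with 1 kidney left out this difference ranged from 0.04 (without G3 kidney 4) to 0.32, with 0.07 without G3 kidney 2. As background, a ratio to TSC22D3 separated these groups in this direction for 0.268% of 25700 other genes and one of FKBP5 to another gene for 0% of 16005. As background for the absence of overlap, the ratio of any other gene to TSC22D3 separated G2 from G1 in this direction for 2.37% of genes and G3 from G1 for 6.39%. The ratio of FKBP5 to any other gene did so for 10% of 16189 genes in G2 against G1 and for 0.966% of 16361 in G3 against G1. These FKBP5 shares count only genes with reads in every kidney compared. The TSC22D3 shares are over 25698 and 25718 genes, including genes without reads in some kidneys. The shares of the 2 kinds therefore cannot be compared with each other. Both genes had been chosen from the G3 comparison, so that the separation there was in part set by the choice, and no test was made of it. Within code series the G2 minus G1 difference was 0.82 in A and 0.68 in C, and that of G3 minus G1 was 0.47, 1.83 and 0.86 in A, B and C. That of G3 minus G2 was −0.35 in A, the reverse of its direction over all kidneys, and 0.17 in C.

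**Figure D2:**
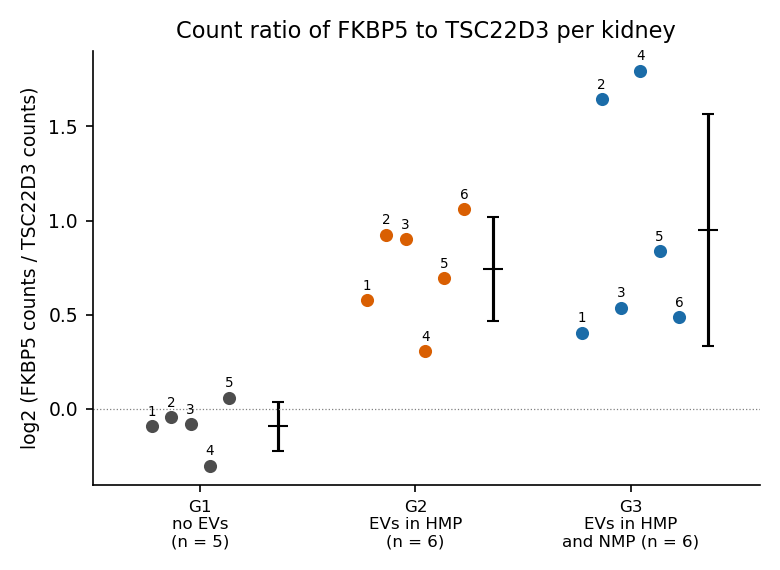
The log2 ratio of FKBP5 counts to TSC22D3 counts in each kidney, by group. Points are kidneys with their number, black bars are the mean ± SD on the log2 scale, and the dotted line marks equal counts. The 5 G1 kidneys lie around 0 and every G2 and G3 kidney lies above them, with G3 kidneys 2 and 4 highest.

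Group means of the genes differed in opposite directions, so it was asked whether kidneys of 1 group that had more FKBP5 also had less TSC22D3. After the group means were removed, Pearson's r between log2 CPM of FKBP5 and TSC22D3 was 0.02 and Spearman's rho 0.04 over 17 kidneys, with a two-sided permutation p of 0.957 (adjusted p 0.957 over 3 such tests). Within G2, r was −0.16 and rho −0.49 (n = 6, exact permutation p = 0.717 for r and 0.356 for rho). Within G3, r was −0.16 and rho 0.14 (n = 6, exact permutation p = 0.733 and 0.803). Without the kidneys farthest from the median of FKBP5, r was −0.15 in G2 (without kidneys 4 and 6) and 0.93 in G3 (without kidneys 4 and 2), each over 4 kidneys and with no test, so that the sign in G3 rests on those kidneys. Within G1, r was 0.80 and rho 0.5 (n = 5), of the opposite sign to r in G2 and G3, with no test. There kidney 3 was highest in both genes, and kidneys 1 and 5 were below the group mean in both. Kidney 4 was below that mean in FKBP5 and above it in TSC22D3, and kidney 2 the reverse. The value over all kidneys also rested on a few: without G3 kidneys 4 and 2, the farthest from the median of FKBP5, r was 0.52 and rho 0.32 (n = 15, permutation p = 0.0575 for r). Leaving out 1 kidney at a time gave r from −0.13 to 0.30, and removing code series means as well gave −0.27 (permutation p = 0.443). G3 kidney 4 combined the second highest FKBP5 with the lowest TSC22D3 of all kidneys, while G3 kidney 2 had the highest FKBP5 with a TSC22D3 near its group's mean.

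**Figure D3:**
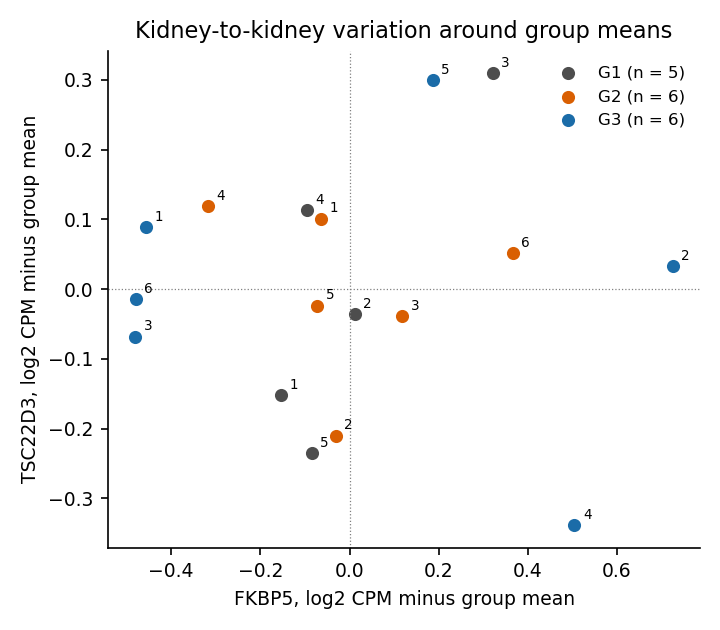
Deviation of log2 CPM from the group mean for FKBP5 (x axis) and TSC22D3 (y axis), with 1 point per kidney, coloured by group and numbered. Over all 17 points r is 0.02, against 0.52 without G3 kidneys 2 and 4, and G3 kidneys 2 and 4 lie far to the right, G3 kidney 4 also at the bottom.

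The symbol table names a second identifier, ENSSSCG00000056590, TSC22D3 as well, and which of both lies at the RefSeq position is not known. It carried 15 to 29 counts per kidney, with 1.15 ± 0.133 CPM (SD, n = 5) in G1, 0.839 ± 0.118 (n = 6) in G2 and 0.860 ± 0.172 (n = 6) in G3. Against G1 this identifier had log2 fold changes of −0.46 (SE 0.291) in G2 and −0.43 (SE 0.284) in G3, with 0.04 between G3 and G2. With the counts of both identifiers summed, TSC22D3 differed from G1 by −0.28 in G2 and −0.53 in G3 and between G3 and G2 by −0.25. How reads that match both were counted, and whether strand was used, is not given in the sources used here, so reads of an overlapping or antisense gene could be among those of either gene.

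Upstream of both genes stand the receptors and the enzymes that set the local hormone level. NR3C1, the glucocorticoid receptor, had 88.2 ± 15.8 CPM (SD, n = 5) in G1, 103.1 ± 21.8 (n = 6) in G2 and 111.0 ± 17.8 (n = 6) in G3. Against G1, NR3C1 had log2 fold changes of 0.23 (SE 0.162) in G2 and 0.32 (SE 0.142) in G3, the latter with an unadjusted p of 0.0353 and an adjusted p of 0.813 in edgeR. G3 kidneys ranged from 87.0 to 130.5 CPM and G1 kidneys from 68.0 to 106.8, so the groups overlapped. HSD11B1, which regenerates active cortisol from cortisone, had 5.85 ± 1.55 CPM (n = 5) in G1, 8.38 ± 2.64 (n = 6) in G2 and 8.46 ± 1.92 (n = 6) in G3, a log2 fold change of 0.52 in both comparisons with G1 (edgeR unadjusted p 0.0476 and 0.0250, adjusted p 0.840 and 0.813). NR3C2, the mineralocorticoid receptor, had 7.21 ± 1.84 CPM (n = 5), 8.02 ± 1.71 (n = 6) and 6.25 ± 0.929 (n = 6) in G1, G2 and G3. HSD11B2, which inactivates cortisol in aldosterone-sensitive cells, had 102.1 ± 32.5 CPM (n = 5), 145.8 ± 64.4 (n = 6) and 106.0 ± 28.8 (n = 6).

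The list of receptor and ligand handling held 14 genes, among them the HSP90 genes and the co-chaperones FKBP4, PTGES3 and STIP1, and all 14 were measured. None passed an adjusted p of 0.05 in any comparison with edgeR. At an unadjusted p under 0.05, 1 gene was higher in G2 than G1 (HSD11B1), 2 were higher in G3 than G1 (HSD11B1 and NR3C1) and 0 differed between G3 and G2. Among all genes, 1.42% were higher in G2 than G1 and 1.94% in G3 than G1 at that threshold, and 3.13% differed between G3 and G2. FKBP4, the co-chaperone that competes with FKBP5 for HSP90 and favours receptor transport, had 269.9 ± 43.1 CPM (SD, n = 5), 273.9 ± 50.8 (n = 6) and 272.9 ± 47.4 (n = 6), so the higher FKBP5 in EV-treated groups stood beside log2 fold changes of 0.02 and 0.00 in FKBP4. FKBP4 was singled out after its values were seen.

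Other targets of the glucocorticoid receptor lay on both sides of 0. Of 30 listed genes 28 were measured, and none passed an adjusted p of 0.05 in edgeR in any comparison. For G2 against G1, 15 lay above and 13 below a log2 fold change of 0 with a median of 0.02 (median of all genes −0.01, 49.3% above and 50.7% below 0). For G3 against G1, 16 lay above and 12 below with a median of 0.04 (all genes −0.02, 46.9% above and 53.1% below 0). Among those above was IGFBP1, named after its values were seen, at 1.28 (SE 1.26) with 0 to 1 counts in G1 kidneys. With a low-count filter 27 targets were left, 15 above and 12 below 0 in that comparison. The comparison of G3 and G2 had 16 above and 12 below with a median of 0.03 (all genes −0.00, 49.7% above and 50.3% below 0). At an unadjusted p under 0.05, 1 of the 28 differed between G2 and G1, and 0 in the other comparisons, against 3.51% of all genes in G2 against G1, 4.73% in G3 against G1 and 3.13% in G3 against G2. DESeq2 found 0 in each. With 1 kidney left out, edgeR's count ranged from 0 to 4 in G2 against G1, with 4 (3 higher and 1 lower) without G1 kidney 3, and from 0 to 2 in each comparison with G3.

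The gene below the unadjusted threshold was KLF15, a transcription factor of amino acid and lipid metabolism, with 26.4 ± 6.35 CPM (SD, n = 5) in G1 and 19.7 ± 4.79 (n = 6) in G2, a log2 fold change of −0.42 (SE 0.192, edgeR unadjusted p 0.0433, adjusted p 0.840). Next in that comparison came ANGPTL4, an inhibitor of lipoprotein lipase, at 0.87 (SE 0.422), FOXO3, a stress-responsive transcription factor, at 0.27 (SE 0.136), and TAT, a tyrosine-degrading enzyme, at −0.44 (SE 0.291). ANGPTL4 ranged from 72.7 to 392.2 CPM in G1 and from 136.5 to 763.0 in G2. In G3 against G1 the genes with the smallest p were KLF15 (−0.27), KLF9, a zinc-finger factor (0.22), IL1R2, the decoy receptor of interleukin-1 (−0.52), and G6PC1, the last enzyme of gluconeogenesis (0.53). In G3 against G2 they were KLF9 (0.25), ANGPTL4 (−0.57), PIK3R1, a regulatory subunit of PI3-kinase (−0.31), and PCK1, a gluconeogenic enzyme (0.30). None of these passed an unadjusted p of 0.05 in the comparisons with G3.

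**Figure D4:**
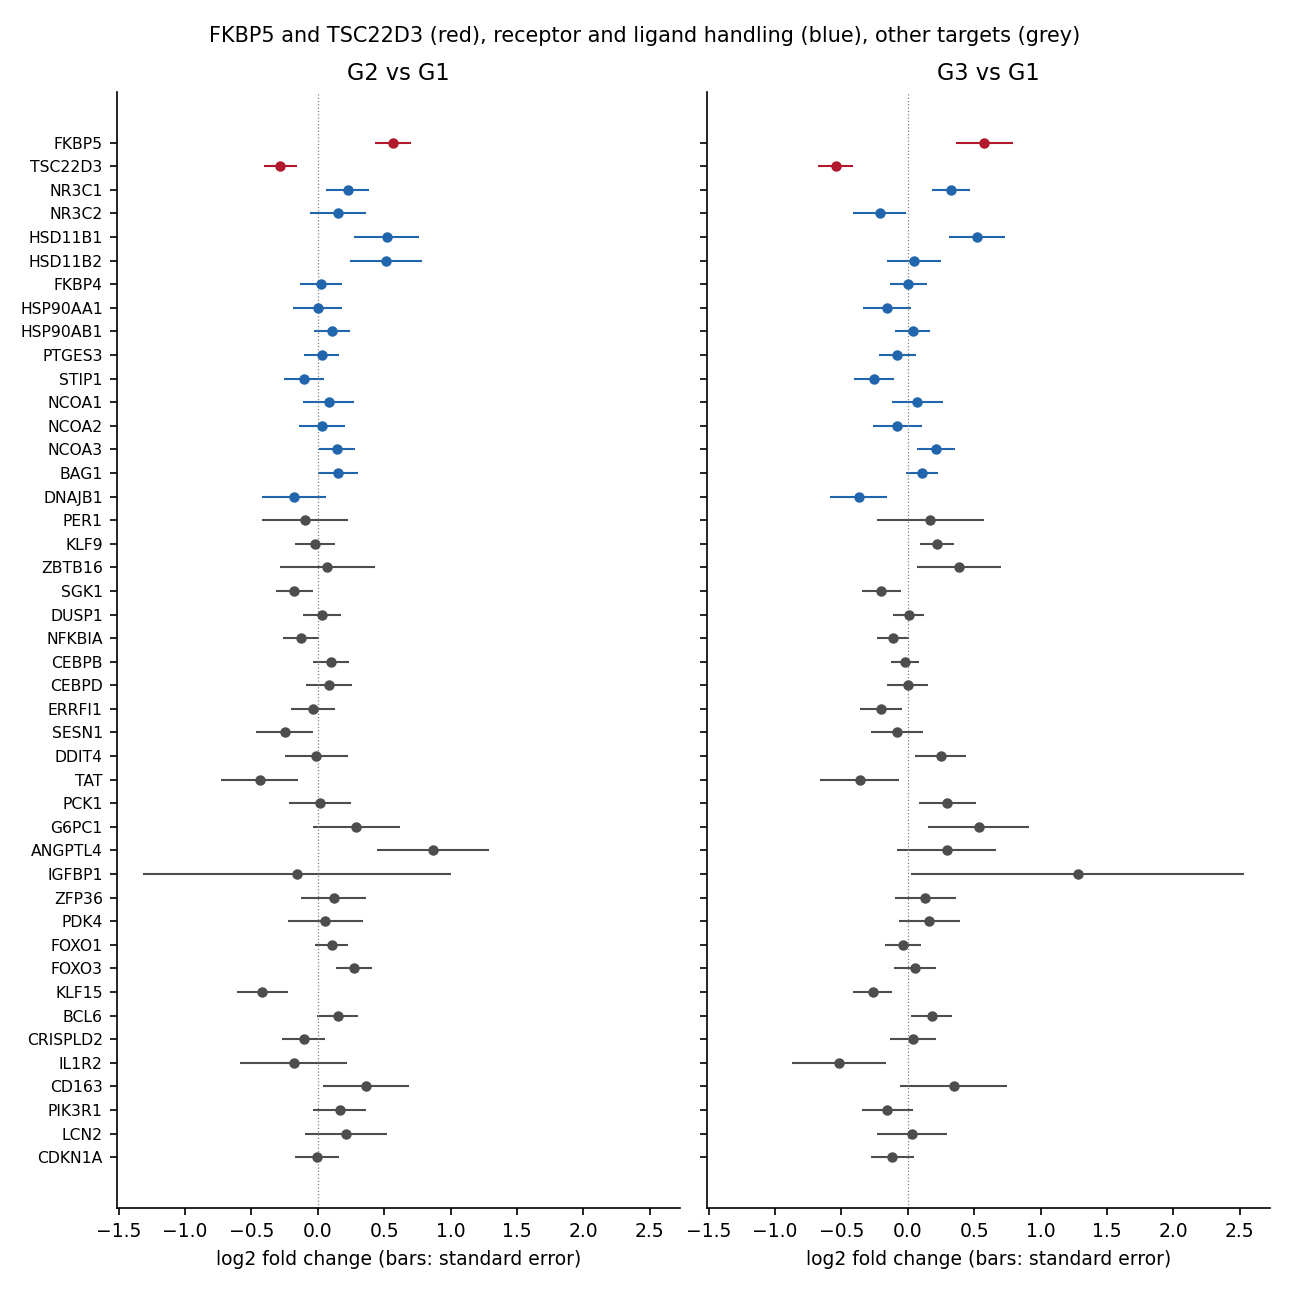
Log2 fold changes of FKBP5 and TSC22D3 (red), the 14 genes of receptor and ligand handling (blue) and the 28 other glucocorticoid targets measured (grey) in G2 against G1 (left) and G3 against G1 (right), from edgeR, with bars of 1 standard error on a common axis. FKBP5 lies to the right and TSC22D3 to the left of 0 in both panels, while most other targets lie on both sides near 0.

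TSC22D3 is also a target of aldosterone, and 11 of 11 genes of aldosterone-sensitive sodium transport were measured. None passed an adjusted p of 0.05 in edgeR. Their median log2 fold change was 0.13 in G2 against G1 (7 above and 4 below 0), beside −0.01 for all genes (49.3% above and 50.7% below). It was −0.05 in G3 against G1 (3 above and 8 below), beside −0.02 for all genes (46.9% and 53.1%), and −0.12 in G3 against G2 (2 above and 9 below), beside −0.00 (49.7% and 50.3%). The 1 gene with an unadjusted p under 0.05 was SCNN1G, the gamma subunit of the epithelial sodium channel, at −0.77 (SE 0.328, unadjusted p 0.0303, adjusted p 0.948) in G3 against G2, where 3.13% of all genes were under that threshold. Of 16 inflammatory genes that glucocorticoids are known to hold down, 14 were measured and 0 had an unadjusted p under 0.05 in edgeR in any comparison, beside 3.51%, 4.73% and 3.13% of all genes in G2 against G1, G3 against G1 and G3 against G2, with 6 above and 8 below 0 in each.

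Among relatives of the 2 genes, TSC22D2 and TSC22D4 were measured. TSC22D2 had 117.9 ± 28.4 CPM (SD, n = 5), 110.9 ± 10.7 (n = 6) and 99.2 ± 21.1 (n = 6) in G1, G2 and G3, and TSC22D4 had 47.6 ± 5.76 (n = 5), 50.4 ± 8.08 (n = 6) and 48.8 ± 5.55 (n = 6). Of 14 FKBP family genes 12 were measured, with 7 above and 5 below 0 in G2 against G1 and 5 above and 7 below in G3 against G1, where all genes were 46.9% above and 53.1% below 0 (49.3% and 50.7% in G2 against G1). The only one with an unadjusted p under 0.05 was FKBP7, a chaperone of the endoplasmic reticulum, with 4.98 ± 1.66 CPM (n = 5) in G1 and 2.84 ± 0.791 (n = 6) in G3, a log2 fold change of −0.81 (SE 0.267, edgeR unadjusted p 0.00752, adjusted p 0.813), in a comparison where 2.79% of all genes were lower at that threshold.

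Correlation over the 17 kidneys, with group means removed, describes which genes varied as FKBP5 or TSC22D3 did among kidneys of 1 group. The 12240 genes with a mean count of at least 50 were compared, and these values share libraries and scaling and carry no test. The 5 genes most like FKBP5 were HAO2, a peroxisomal hydroxyacid oxidase (r = 0.83), A2M, a protease inhibitor (0.81), AGMO, an ether lipid monooxygenase (0.80), GFM2, a mitochondrial translation factor (0.79), and ENSSSCG00000056686, which has no symbol (0.79). The 5 most like TSC22D3 were DCUN1D3 (0.83), C21orf91 (0.82), EPB41L4B (0.73), ROBO2, a guidance receptor (0.69), and DCTN4, a dynactin subunit (0.67). The lists shared no gene.

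Against the lists above, TSC22D3 had a positive r with 20 of 25 other glucocorticoid targets that reached this count (median 0.17, against 49.7% of all genes with a median of −0.00), with 12 of 14 receptor and ligand genes (0.17) and with 10 of 11 aldosterone genes (0.16). FKBP5 had a positive r with 14 of 25 targets (median 0.04, against 52.9% of all genes with a median of 0.03), 9 of 14 receptor and ligand genes (0.12) and 8 of 11 aldosterone genes (0.32). The genes at both ends were picked after their values were seen. Among the targets, the highest r with FKBP5 were those of CD163, a macrophage scavenger receptor (0.66), FOXO1 (0.60), G6PC1 (0.57) and PCK1 (0.49). The lowest r with FKBP5 were those of LCN2 (−0.37), CEBPD (−0.36), DUSP1 (−0.34) and BCL6 (−0.32). With TSC22D3 the highest was ERRFI1, an inhibitor of the EGF receptor (0.64), and the lowest LCN2 (−0.24). NR3C1 had an r of 0.20 with FKBP5 and 0.24 with TSC22D3.

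Cell type markers in the biopsies were compared with both genes over kidneys, since NMP medium carried blood cells and cell mixture differs between biopsies. The defining markers of kidney were present: summed proximal tubule markers ranged from 4731 to 10052 CPM, and no listed marker was at 0 in all kidneys of a group. Leukocyte markers (8 of 9 measured) summed to 99.3 to 132.7 CPM in G1, 96.5 to 175.4 in G2 and 112.4 to 130.7 in G3. Red cell markers summed to 1.42 to 3.60, 1.04 to 5.42 and 0.0948 to 2.10 CPM, and fibroblast markers to 306.8 to 579.9, 368.5 to 713.7 and 258.5 to 510.4 CPM. With group means removed, r between either gene and 8 marker sums (16 relations, n = 17) lay between −0.39 and 0.49 over all 17 kidneys, and the smallest adjusted permutation p was 0.775. The highest was FKBP5 with fibroblast markers (r = 0.49, rho = 0.39, permutation p = 0.0651), which was 0.34 without the 2 farthest kidneys. Leaving out the 2 farthest kidneys moved other relations more: r of FKBP5 with loop and distal tubule markers went from 0.21 to 0.71, and r of TSC22D3 with proximal tubule markers from 0.02 to −0.45. With the leukocyte sum r was −0.01 for FKBP5 and −0.03 for TSC22D3, although CD163, which is on the leukocyte list as well as on that of glucocorticoid targets, had an r of 0.66 with FKBP5 and 0.04 with TSC22D3.

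Some single markers, named after their values were seen, differed between groups. The sums weigh abundant genes most, and CD68 alone made up 71.7 ± 6.81 CPM (SD, n = 5) of the leukocyte sum in G1. CD14, a monocyte marker, had 7.85 ± 1.37 CPM (n = 5) in G1, 13.0 ± 2.49 (n = 6) in G2 and 9.93 ± 3.12 (n = 6) in G3, and all 6 G2 kidneys lay above all G1 kidneys (0.0817% of genes did so). Its log2 fold change in G2 against G1 was 0.72 (SE 0.178, edgeR unadjusted p 0.000826, adjusted p 0.840), close to the unadjusted p of FKBP5 in that comparison, and the median over the 8 leukocyte markers was 0.32 (6 above and 2 below 0, beside 49.3% and 50.7% of all genes). Collecting duct markers had a median of 0.62 there (3 of 3 above 0), with AQP2, the vasopressin-regulated water channel, at 0.67 (SE 0.305, unadjusted p 0.0432). In G3 against G1, PECAM1 of endothelium was at 0.31 (unadjusted p 0.0342). In G3 against G2, the collagen genes COL1A1 and COL1A2 of fibroblasts were at −0.63 and −0.75 (unadjusted p 0.00705 and 0.00599), and HBB of red cells (−1.21) and SCNN1G were also under an unadjusted p of 0.05. Of all genes, 3.51%, 4.73% and 3.13% were under an unadjusted p of 0.05 in G2 against G1, G3 against G1 and G3 against G2, and no marker passed an adjusted p of 0.05 in edgeR. Against G1, endothelial markers were above 0 in 4 of 4 cases in both G2 and G3 (medians 0.18 and 0.24). Fibroblast markers were above 0 in 4 of 4 in G2 (median 0.30) and 2 of 4 in G3 (median −0.13). Proximal tubule markers were so in 5 of 5 in G2 (median 0.14) and 4 of 5 in G3 (median 0.08). Loop and distal tubule markers were so in 1 of 4 in both (medians −0.06 and −0.16). Podocyte markers were so in 2 of 3 in G2 (median 0.20) and 1 of 3 in G3 (median −0.16). Leukocyte markers were above 0 in 5 of 8 in G3 (median 0.06) and collecting duct markers in 2 of 3 (median 0.15). Red cell markers were above 0 in 4 of 4 in G2 (median 0.28) and 1 of 4 in G3 (median −0.92). These red cell markers were near the floor, with a lowest count of 0 in each group. Beside these lists, 49.3% of all genes were above 0 in G2 and 46.9% in G3. The part of these genes in the differences of FKBP5 and TSC22D3 was not tested.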

How the data were processed

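The authors trimmed reads with cutadapt 4.0, aligned them with STAR to Sscrofa11.1 with Ensembl annotation, and deposited unnormalized counts, 1 value for each gene in each kidney. The counting program and strand setting are not given in the sources used here. A deposited DESeq2 table of G3 against G1 (fold changes and p-values) was not used for values. Of 26560 genes 15093 had a symbol. ENSSSCG00000030241 was named TSC22D3 from the authors' gene description.

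Groups came from the sample labels. Genes with a total of 1 or more in the kidneys compared were tested pairwise with edgeR 4.0.16 (TMM, quasi-likelihood, R 4.3.3) and Benjamini-Hochberg adjustment over all genes, with a threshold of 0.05. DESeq2 1.42.0 was an alternative. Log2 CPM used a prior count of 2. Correlations over kidneys removed group means and used 100000 within-group permutations, or exact enumeration in groups of 6 (scipy 1.17.1). The fits were checked on simulated counts. Alternatives were other size factors, a low-count filter, all groups in 1 fit, a replicate block, code series as covariate, and leaving out each kidney. Summing both TSC22D3 identifiers was chosen after seeing the data.

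The 2 genes and all lists were chosen with earlier results of these data known. The text names FKBP5, TSC22D3, NR3C1, NR3C2, HSD11B1 and HSD11B2, the 4 genes of a list with the smallest p in a comparison, those past the adjusted threshold, and the 5 genes most like each of the 2. Other named genes are marked as picked later. Each kidney is from another animal, so p-values measure the spread between kidneys. With 19270046 to 24736473 counts per kidney, counting error of both genes is small beside that spread. The result of 1 marker gene is not reported here.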

Additional observations from a re-analysis of the deposited data

Results flagged for a closer look

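Neither FKBP5 nor TSC22D3 had a kidney far from the others of its group by Dixon's test. Of 51 sets of values tested, 4 had such a kidney, and chance gives about 2.55. All 4 were sums of marker genes on the log2 CPM scale: red cell markers in G3 kidney 5 (−3.40, gap over range 0.735), endothelial markers in G3 kidney 3 (9.02, 0.779), proximal tubule markers in G1 kidney 1 (12.2, 0.873) and collecting duct markers in G1 kidney 3 (7.84, 0.741). The red cell sum of G3 kidney 5 was near the floor, at 0.0948 CPM over 4 genes. G3 kidney 5 had the highest TSC22D3 and G3 kidney 3 the lowest FKBP5 of G3. G1 kidney 1 had the lowest FKBP5 and G1 kidney 3 the highest FKBP5 and TSC22D3 of G1. Whether these coincidences bear on either gene was not tested.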

How the results depend on the processing

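Under every alternative run, FKBP5 was above and TSC22D3 below G1 in both G2 and G3. In G3 these directions were set by the comparison that chose the genes, so this is no sign of stability, and G2 shares its G1 kidneys. In G2 against G1 and G3 against G2 neither gene passed the adjusted threshold under any alternative. Leaving out 1 kidney gave log2 fold changes of 0.48 to 0.65 (FKBP5, G2 against G1), 0.41 to 0.67 (FKBP5, G3 against G1), −0.34 to −0.21 (TSC22D3, G2 against G1), −0.60 to −0.46 (TSC22D3, G3 against G1), −0.31 to −0.19 (TSC22D3, G3 against G2) and −0.15 to 0.12 (FKBP5, G3 against G2). The last reversed without G3 kidney 2, G3 kidney 4 or G2 kidney 4, with code series as covariate (−0.19) and within series A (−0.46) and C (−0.14). TSC22D3 in G2 against G1 was −0.13 with code series as covariate and −0.012 within series C. The difference of log2 ratios was 1.83 within series B (G3 against G1) and −0.35 within series A (G3 against G2). The correlation of both genes was −0.27 with code series removed and −0.13 to 0.30 with 1 kidney left out, below 0 in 7 of 17 cases.

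Same-numbered kidneys come from different animals, so the numbers are no pairing by donor. They correlated from −0.26 to 0.44. In G3 against G1, G2 against G1 and G3 against G2, 3 of 5, 1 of 5 and 1 of 6 pairs were best with their own number. Whether same-numbered kidneys share something else, as 3 of 5 in G3 against G1 leaves possible, was not tested. With the replicate number as a block, FKBP5 differed by −0.047 between G3 and G2 and calls were 9 (G3 against G1), 0 (G2 against G1) and 7 (G3 against G2).

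Calls in G3 against G1 (2 in edgeR) were 31 in DESeq2, 1 with a low-count filter, 0 with all groups in the fit (1126 at an unadjusted p under 0.05), 11 with code series, and 0 to 9 with 1 kidney left out. In G2 against G1 (0) they were 1 in DESeq2 and 2 with code series. In G3 against G2 (0) they were 3 in DESeq2 and 0 to 5 with 1 kidney left out, the 5 without G2 kidney 2. Other glucocorticoid targets at an unadjusted p under 0.05 were 2, 5 and 2 with code series in G3 against G1, G2 against G1 and G3 against G2, 0 in DESeq2 for G2 against G1, 3, 2 and 0 with the replicate block, and 0 to 2, 0 to 4 and 0 to 2 with 1 kidney left out (0, 1 and 0 with all kidneys). With group means kept, 2 of the 5 genes most like FKBP5 and 0 of those most like TSC22D3 remained. The causes were not tested.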
